A study of Mus musculus with 26 samples.

Results

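Basal and luminal cells of the mammary gland were compared in 3-month-old wild-type mice. The comparison uses 4 of the 26 libraries of the series, chosen by their labels and not by a measured value. Basal cells of pools F79 and F81 were set against luminal cells of the same pools, so each group has n = 2. Each library came from cells that had been pooled from 3 B6.129S1 mice before sorting by fluorescence on EpCAM and CD49f. The Snai2 gene was intact in every group used here, and the glands had been minced and kept in freezing medium before dissociation. The spread between libraries was estimated over the 12 wild-type libraries, which add the stromal fraction of both pools and the basal, luminal and stromal fractions of pools A1 and A2 from 12-month-old wild-type mice. The other 14 libraries come from Snai2-LacZ null mice and did not enter the fit. Luminal, basal and stromal cells of 1 pool come from the same mice, so the pool was a block in the model. With this block, a p-value here reflects how libraries deviate from the fitted group and pool levels, not how single mice vary.

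Mammary ducts have an inner layer of luminal cells, which line the lumen, carry the receptors for ovarian hormones and prolactin, and make milk. The outer basal layer is mostly myoepithelium, contractile cells that rest on the basement membrane and squeeze the duct when oxytocin binds them. Basal cells are also known for Trp63 and the Snail-family gene Snai2, for their response to Wnt ligands, and for cells that can rebuild a gland after transplantation.

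The 3-month basal libraries held 5186916 (F79) and 16649904 (F81) counts, and the luminal libraries 5851351 (F79) and 5523449 (F81) counts. Basal F81 is the deepest of the 12 wild-type libraries, whose totals start at 3203664. Mitochondrial ribosomal RNA took 23.8% and 30.6% of the counts in basal cells and 29.8% and 31.8% in luminal cells. Levels are in CPM, a gene's count scaled to the library's TMM-corrected total, and pairs of values are those of F79 and F81 in that order. Fold changes are log2 of basal over luminal, with their standard error, and a gene was called where edgeR's quasi-likelihood F-test gave an adjusted p (Benjamini-Hochberg) below 0.05.

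The marker genes lay on the side their labels give. Acta2, the smooth-muscle actin of myoepithelium (ENSMUSG00000035783, GRCm38 chromosome 19, 34241090 to 34255590, minus strand), had 2976 and 2104 CPM in basal libraries, against 90.4 and 125 CPM in luminal libraries. Its log2 fold change was 4.55 ± 0.36 (adjusted p = 4.29e-06). Krt14, a basal keratin (ENSMUSG00000045545, chromosome 11, 100203162 to 100207548, minus strand), had 715 and 627 CPM in basal libraries, against 23.0 and 45.9 CPM in luminal libraries. The basal and luminal libraries did not overlap for Krt14, but its log2 fold change of 4.39 ± 1.21 did not pass the test (adjusted p = 0.0579, and 3.66e-53 to 0.379 over the alternative settings). Krt8, a simple-epithelium keratin (ENSMUSG00000049382, chromosome 15, 101996698 to 102004482, minus strand), had 65.7 and 90.2 CPM in basal libraries, against 741 and 460 CPM in luminal libraries (log2 fold change -3.0 ± 0.37, adjusted p = 0.000164). Cldn4, a tight-junction claudin (ENSMUSG00000047501, chromosome 5, 134945119 to 134946934, minus strand), had 2.05 and 6.69 CPM in basal libraries, against 114 and 68.5 CPM in luminal libraries (log2 fold change -4.33 ± 0.66, adjusted p = 0.00243). Snai2, a repressor of epithelial genes (ENSMUSG00000022676, chromosome 16, 14705852 to 14709385, plus strand), had 42.8 and 34.5 CPM in basal libraries, against 1.13 and 2.21 CPM in luminal libraries (log2 fold change 4.51 ± 0.41, adjusted p = 3.97e-06). In these sorted bulk samples, fewer cells of a type and less RNA per cell cannot be told apart.

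**Figure D1:**
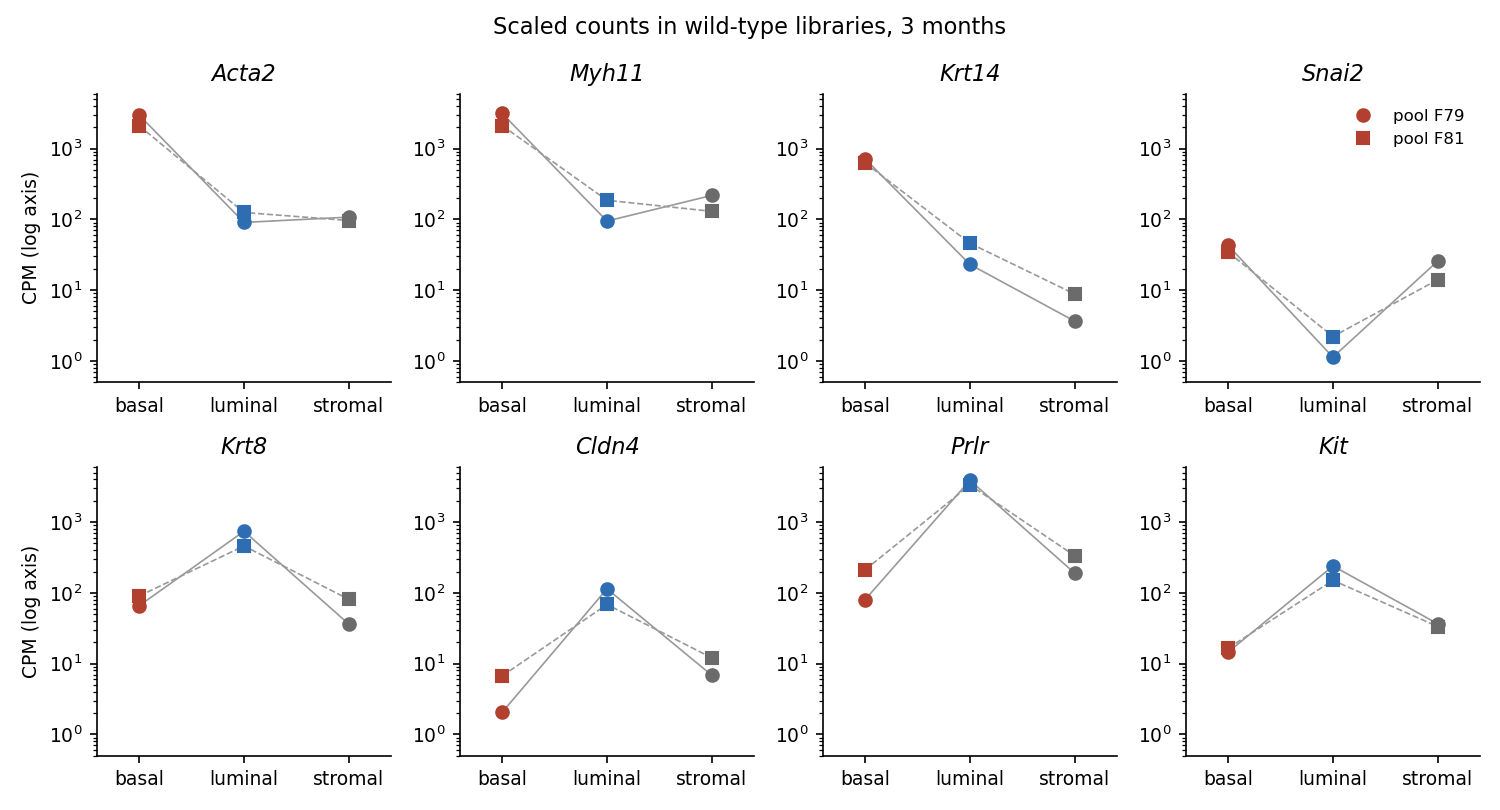
Scaled counts (CPM, vertical log axis) of Acta2, Myh11, Krt14, Snai2, Krt8, Cldn4, Prlr and Kit in basal, luminal and stromal libraries of 3-month wild-type mice. Circles are pool F79 and squares pool F81. Acta2, Myh11, Krt14 and Snai2 are higher in both basal libraries than in both luminal ones, and Krt8, Cldn4, Prlr and Kit are lower.

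Neither fraction was free of the genes that define the other, and the pools differed in this. Over the 2076 genes called higher in basal cells, luminal F81 lay above luminal F79 for 66.6% of the genes, with a median log2 difference of 0.20. Over the 1677 genes called lower in basal cells, basal F81 lay above basal F79 for 63.1%, with a median of 0.22. Over all tested genes these shares were 50.9% and 52.3%. For all 8 genes plotted by library the log2 ratio of basal over luminal was nearer to 0 in F81 than in F79. These 8 genes were picked for the figure, and other called genes went the other way. Such were Reep6 (-4.39 in F79 and -4.88 in F81) and Krt15 (3.02 and 3.68). The called genes come from these same libraries, so their shares are a description and not a separate check. The part of this pool difference in the fold changes was not tested, and values are therefore given for both pools.

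The 250 bases before the RefSeq transcript start of 4 genes are shown. Cnn2 and Vcl of the contractile machinery rose, and Cldn3 and Cldn4 of the tight junction fell, and all 4 were chosen after their values and motifs were seen, among windows that reach at most 30 bases into the gene. The sequences are RefSeq promoters on GRCm38.p6, written 5′ to 3′ along the gene. Capitals mark matches to the CArG box, the element that serum response factor binds, or to the E-box. The E-box is CAGGTG or its reverse complement CACCTG, which Snail-family proteins are known to bind. The CArG box was allowed at most 1 substitution, a C or G within its inner run of A and T, with its CC and GG ends fixed.

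Cnn2, chr10:79988350-79988599, plus strand: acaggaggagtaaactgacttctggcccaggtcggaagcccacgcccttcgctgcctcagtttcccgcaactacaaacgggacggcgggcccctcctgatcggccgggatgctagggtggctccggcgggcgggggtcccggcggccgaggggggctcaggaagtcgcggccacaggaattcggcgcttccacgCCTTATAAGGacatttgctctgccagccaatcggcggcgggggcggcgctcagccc
Vcl, chr14:20929148-20929397, plus strand: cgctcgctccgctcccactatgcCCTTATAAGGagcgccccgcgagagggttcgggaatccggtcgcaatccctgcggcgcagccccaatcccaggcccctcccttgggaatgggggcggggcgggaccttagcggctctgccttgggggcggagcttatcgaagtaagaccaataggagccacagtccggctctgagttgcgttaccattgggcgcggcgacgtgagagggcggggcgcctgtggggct
Cldn3, chr5:134985964-134986213, plus strand: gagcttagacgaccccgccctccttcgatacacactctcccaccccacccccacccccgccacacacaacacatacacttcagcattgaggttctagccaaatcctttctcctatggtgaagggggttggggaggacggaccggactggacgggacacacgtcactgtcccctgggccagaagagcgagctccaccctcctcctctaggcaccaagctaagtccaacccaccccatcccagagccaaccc
Cldn4, chr5:134946935-134947184, minus strand: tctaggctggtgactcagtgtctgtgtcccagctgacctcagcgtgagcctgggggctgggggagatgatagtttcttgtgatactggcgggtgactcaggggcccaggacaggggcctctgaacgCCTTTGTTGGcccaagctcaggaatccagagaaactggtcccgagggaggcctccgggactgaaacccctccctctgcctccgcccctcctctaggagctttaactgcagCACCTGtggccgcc

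Cnn2, calponin 2, has a full CArG box that begins 56 bases before the RefSeq start, which lies 16 bases inside the GENCODE gene. Vcl, vinculin, which ties actin to adhesion sites, has a full CArG box that begins 227 bases before the start. Cldn4 has an E-box 14 bases and a CArG match with 1 substitution 124 bases before its start, and the Cldn3 window holds neither motif. Vcl had 248 and 204 CPM in basal libraries, against 99.9 and 127 CPM in luminal libraries, and its call (log2 fold change 0.99) was lost without basal F79 (0.79) and luminal F79 (0.74). The motifs were searched on both strands and do not overlap in these windows. Some RefSeq starts lie well inside the GENCODE gene, by 217 bases for Acta2, 140 for Krt8 and 1360 for Krt7, and a gene can have several windows. The Acta2 window holds a pair of CArG matches with 1 substitution each, 84 and 34 bases before its RefSeq start.

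The E-box was found in 17.2% of all 32851 RefSeq promoters, in 14.4% of the promoters of genes called higher in basal cells and in 22.2% of those of genes called lower. A full CArG box was found in 1.47% of all promoters, in 2.26% for the genes called higher and in 0.773% for those called lower. With at most 1 substitution the shares were 8.59%, 8.74% and 8.5%. Called genes come from the tested genes, and 15.9% of the 13173 promoters of tested genes held the E-box. A full CArG box was in 1.18% of these promoters, and a match with at most 1 substitution in 7.75%. Of the contractile genes 18 of 21 matched a promoter, and 3 genes (Myl9, Cnn2 and Vcl) had a full CArG box, in 14.3% of 21 promoters. The claudin list had it in 16.7% of 18 promoters, which are 3 overlapping windows of 1 gene, Cldn12. With at most 1 substitution the shares were 19% for the contractile genes and 33.3% for the claudin list. All 3 luminal keratin promoters that matched (Krt7, Krt8 and Krt18) held the E-box, as did promoters of 4 of 12 matched genes of the claudin list: Cldn4, Cldn6, Cldn7 and Ocln, the gene of occludin. A match is only a run of letters in this window and was not tested for binding.

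Of 14990 genes tested, 25% were called, 2076 higher in basal cells (13.8%) and 1677 lower (11.2%). A gene was called in the same direction as both of its pool ratios in 3753 of 3753 cases, and basal and luminal libraries did not overlap for 3744 of them. The calls rest on these same libraries, so neither count is a separate check of them. Over all tested genes 62.2% did not overlap. A log2 fold change beyond 3 was reached by 495 genes called higher and 429 called lower. Of 13104 protein-coding genes 26.7% were called, and of 895 long non-coding genes 14.7%. The median log2 fold change of all tested genes was -0.02. The number of calls depends on each library: it was 1708 without luminal F79, 2051 without basal F79, 2322 without basal F81 and 2473 without luminal F81.

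**Figure D2:**
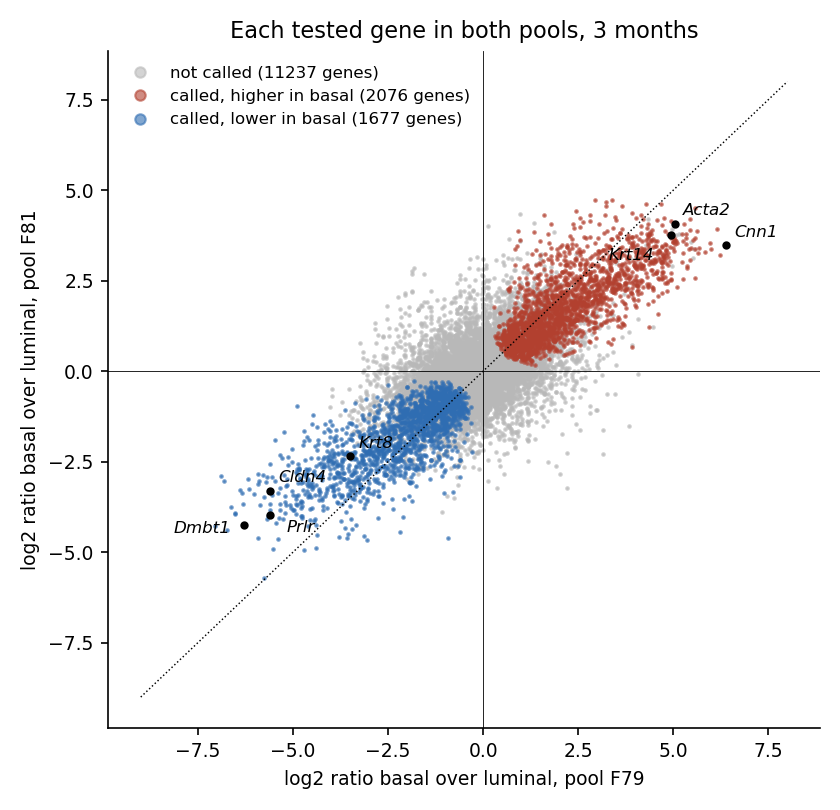
Log2 ratio of basal over luminal cells in pool F79 (horizontal axis) and pool F81 (vertical axis) for the 14990 tested genes. The 2076 genes called higher in basal cells are red, the 1677 called lower blue and the others grey. Each called gene has the same sign in both pools, which the calls, made on these same libraries, favour.

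**Figure D3:**
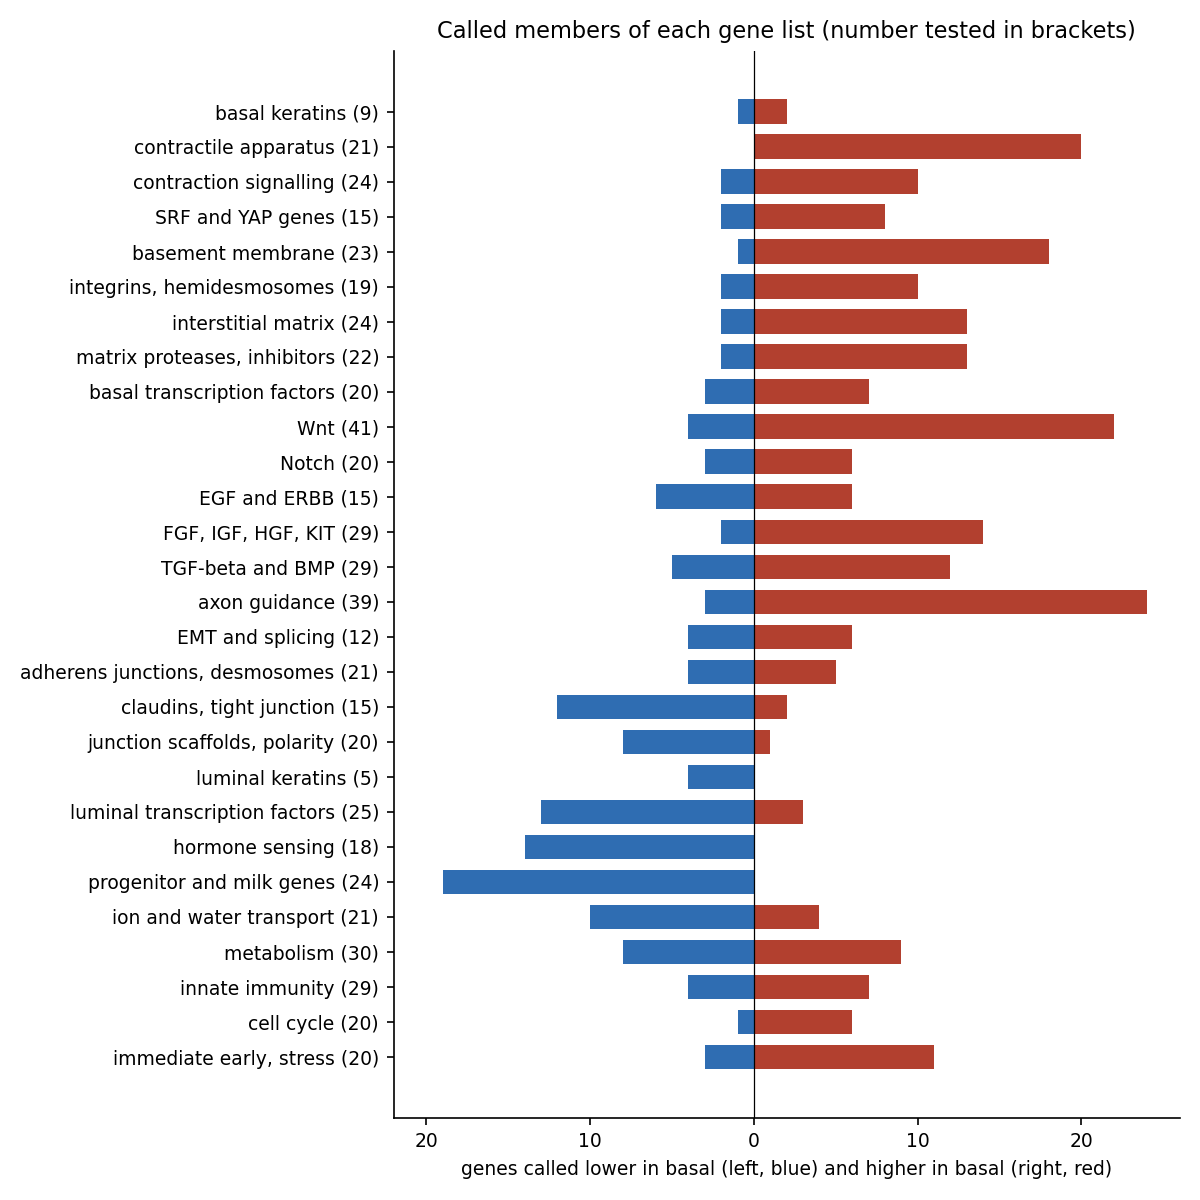
Number of genes called in each of 28 gene lists, basal over luminal cells at 3 months. Red bars run right for genes higher in basal cells and blue bars left for genes lower, and the contractile list has 20 higher and none lower while the hormone-sensing list has none higher and 14 lower. Over all tested genes 13.8% were called higher and 11.2% lower.

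Genes of the contractile machinery made the most uniform group. Of 21 tested, 20 rose and none fell, with a median log2 fold change of 3.63. Their summed level was 20680 and 13120 CPM in basal libraries, against 1308 and 1788 CPM in luminal libraries. Myh11, the smooth-muscle myosin heavy chain, had 3139 and 2113 CPM in basal libraries, against 94.6 and 186 CPM in luminal libraries (log2 fold change 4.19 ± 0.56, adjusted p = 0.000943). Tagln, the actin-bundling transgelin, had 260 and 217 CPM in basal libraries, against 14.0 and 17.8 CPM in luminal libraries (log2 fold change 3.90 ± 0.29, adjusted p = 1.71e-06). The basal libraries lay far above the luminal ones for both, and stroma held little Tagln (14.7 and 14.9 CPM). Actg2, the gamma smooth-muscle actin, had 87.8 and 66.8 CPM in basal libraries, against 2.42 and 5.27 CPM in luminal libraries, and reads it shares with its close relative Acta2 may have been split between them. Flna, the actin cross-linker filamin A, had 1216 and 965 CPM in basal libraries, against 116 and 181 CPM in luminal libraries. Cald1, caldesmon, which binds actin and tropomyosin, had 2435 and 1914 CPM in basal libraries, against 114 and 236 CPM in luminal libraries. Cnn1, calponin 1, was the least even: it had 2080 and 627 CPM in basal libraries, against 24.6 and 56.1 CPM in luminal libraries (log2 fold change 4.89 ± 1.26, adjusted p = 0.0485). Its log2 fold change was 3.80 without basal F79, 6.03 without basal F81, 3.73 without luminal F79 and 6.2 without luminal F81, and the call was lost each time. Des, desmin, did not pass (7.26 and 3.40 CPM in basal libraries, 2.25 and 4.25 CPM in luminal libraries). The list's count was 13 without basal F79 and 12 without luminal F79.

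Receptors and channels that set off or tune contraction were more mixed. Of 24 tested, 10 rose and 2 fell, with a median of 1.14. Kcnmb1, the beta subunit that sensitises BK potassium channels to calcium, had 69.0 and 44.4 CPM in basal libraries, against 0.805 and 3.57 CPM in luminal libraries (log2 fold change 4.70 ± 0.53, adjusted p = 3.48e-05). Cacna1c, the L-type calcium channel, had 48.8 and 64.1 CPM in basal libraries, against 4.51 and 5.78 CPM in luminal libraries. Both genes were far lower in both luminal libraries, and Cacna1c also had 59.3 and 60.7 CPM in stroma. Prkg1, the cGMP-dependent kinase, and Gucy1b1, a subunit of the nitric oxide receptor, rose by log2 3.01 ± 0.31 and 2.90 ± 0.47. Adra1a, an alpha-1 adrenergic receptor, fell, with 0.186 and 0.404 CPM in basal libraries, against 5.32 and 9.18 CPM in luminal libraries. Orai1, a store-operated calcium channel, fell to 5.77 and 7.45 CPM in basal libraries, against 20.1 and 22.9 CPM in luminal libraries, with the call lost without basal F79 (log2 fold change -1.48) and without luminal F81 (-1.58). Oxtr, the oxytocin receptor, had 1948 and 736 CPM in basal libraries, against 62.0 and 98.0 CPM in luminal libraries, and did not pass the test (log2 fold change 3.97 ± 1.25, adjusted p = 0.083). Without luminal F79, 6 genes of the list rose.

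Of 15 genes of the serum response factor and YAP pathways, 8 rose and 2 fell (median 0.98). Ctgf, a secreted YAP target, had 185 and 86.4 CPM in basal libraries, against 4.67 and 5.95 CPM in luminal libraries (log2 fold change 4.60 ± 0.32, adjusted p = 1.45e-06). Axl, a receptor tyrosine kinase, had 278 and 267 CPM in basal libraries, against 20.6 and 33.5 CPM in luminal libraries. Tead1, a DNA-binding partner of YAP, had 506 and 445 CPM in basal libraries, against 62.5 and 96.3 CPM in luminal libraries, and the co-activator Wwtr1 (TAZ) had 320 and 224 CPM, against 83.1 and 114 CPM. The TEAD family split. Tead2 fell to 5.03 and 4.50 CPM in basal libraries, against 32.5 and 22.4 CPM in luminal libraries (log2 fold change -2.54 ± 0.38, adjusted p = 0.000224). Tead4 fell by 2.79 ± 0.69 on the log2 scale, a call lost without basal F81 (-1.71), luminal F79 (-3.06) and luminal F81 (-2.48).

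Basal keratins were far apart between the fractions but uneven in the test. Of 9 tested, 2 rose and 1 fell (median 3.22), so 33.3% were called, against 25% of all tested genes. Krt5, the filament partner of Krt14, had 958 and 733 CPM in basal libraries, against 26.4 and 52.8 CPM in luminal libraries. Krt17, another basal keratin, had 264 and 244 CPM in basal libraries, against 8.22 and 15.6 CPM in luminal libraries. Neither passed the test (log2 fold changes 4.55 ± 1.62 and 4.50 ± 1.31, adjusted p = 0.122 and 0.0682). Their standard errors are wider than that of Krt14, and the basal and luminal libraries do not overlap for any of these 3 genes. Krt16 rose, with 5.4 and 5.6 CPM in basal libraries, against 0.322 and 0.85 CPM in luminal libraries. Krt15 rose by 3.36 ± 0.82 on the log2 scale, a call lost without each library in turn (2.88 to 3.96). Krt6a fell to 1.30 and 4.91 CPM in basal libraries, against 17.7 and 13.8 CPM in luminal libraries. No basal keratin was called higher or lower without basal F79 or without luminal F79. The rises numbered 7 of 10 with no low-count filter, 5 of 9 with DESeq2 and 6 of 8 in the 4 libraries alone (5 without the replicate block), and none was called with all 26 libraries. Also, type I keratins such as Krt14, Krt16 and Krt17 share long stretches of sequence, so some reads could have been assigned to the wrong one or dropped. Scaled by exon length, Krt5 and Krt14 averaged 385 and 382 CPM per kilobase in basal libraries, against 18.0 and 19.6 CPM per kilobase in luminal libraries.

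The simple-epithelium keratins fell as a group, 4 of 5 tested with none rising (median -3.26). Krt19 had 39.5 and 56.4 CPM in basal libraries, against 1347 and 730.5 CPM in luminal libraries (log2 fold change -4.45 ± 0.36, adjusted p = 6.81e-06). Krt18, the partner of Krt8, had 72.2 and 88.8 CPM in basal libraries, against 946 and 574 CPM in luminal libraries. Krt7 had 4.47 and 8.6 CPM in basal libraries, against 157 and 122 CPM in luminal libraries. For these keratins the luminal level was higher in F79 than in F81, and the basal level higher in F81. Scaled by exon length, Krt19 and Krt18 averaged 25.9 and 56.0 CPM per kilobase in basal libraries, against 560.1 and 529 CPM per kilobase in luminal libraries.

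Of 15 claudins and their tight-junction partners 12 fell and 2 rose (median -3.66). Cldn3 had 1.12 and 1.85 CPM in basal libraries, against 38.3 and 28.4 CPM in luminal libraries (log2 fold change -4.31 ± 0.39, adjusted p = 3.97e-06). Cldn7 had 1.49 and 1.33 CPM in basal libraries, against 37.9 and 27.5 CPM in luminal libraries, and Cldn8 had 0.186 and 1.33 CPM, against 41.4 and 15.6 CPM. These claudins seal the space between luminal cells near the duct lumen. Cldn6 had the largest fall of the named genes, at 0 and 0.115 CPM in basal libraries, against 16.4 and 21.8 CPM in luminal libraries. Only 2 basal counts were seen, so the ratio of luminal over basal, 216, has a counting interval of 59.1 to 1790. Cldn12 and Cldn15 rose, by 1.18 ± 0.33 and 1.98 ± 0.66, and neither was called without basal F79 (0.97 and 2.51), luminal F79 (1.25 and 2.57) or luminal F81 (1.14 and 1.44), nor was Cldn15 without basal F81 (1.41). Over all alternatives, Cldn12 was lost in 5 of 12 and Cldn15 in 9 of 12. The list's counts were 7 lower and none higher without basal F79 or luminal F79, 9 and none without luminal F81, and 9 and 1 without basal F81.

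Junction scaffolds and apical proteins showed 8 falls and 1 rise among 20 (median -1.16). Cgn, cingulin of the tight junction plaque, had 0.558 and 1.96 CPM in basal libraries, against 44.3 and 37.9 CPM in luminal libraries (log2 fold change -4.99 ± 0.56, adjusted p = 3.93e-05). Prom1, an apical membrane protein, had 5.4 and 5.37 CPM in basal libraries, against 128 and 77.1 CPM in luminal libraries, and Muc1, an apical mucin, had 11.2 and 19.4 CPM, against 119 and 103 CPM. The plaque gene Tjp1 and the polarity gene Patj did not pass. Tjp1 had 343 and 298 CPM in basal libraries, against 268 and 280 CPM in luminal libraries (log2 fold change 0.22 ± 0.19, adjusted p = 0.448). Patj, a polarity protein, had a log2 fold change of -0.04 ± 0.21. Jam2, an adhesion molecule, rose by 1.68 ± 0.33, a call lost without luminal F79 (1.17).

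Cadherins and nectins changed over by type. Cdh3, P-cadherin, had 178 and 150.5 CPM in basal libraries, against 4.99 and 12.2 CPM in luminal libraries (log2 fold change 4.31 ± 0.77, adjusted p = 0.00743), a call lost without basal F79 (3.75), luminal F79 (3.65) and luminal F81 (5.13). Cdh2, N-cadherin, had 14.7 and 23.2 CPM in basal libraries, against 2.25 and 2.72 CPM in luminal libraries. Nectin3 and Nectin1 (listed in the counts as Pvrl3 and Pvrl1), partners in cell adhesion, rose by 2.91 ± 0.32 and 1.83 ± 0.35. Nectin4 (Pvrl4) fell to 3.16 and 7.33 CPM in basal libraries, against 79.3 and 85.1 CPM in luminal libraries (log2 fold change -4.01 ± 0.33, adjusted p = 2.26e-06). Cdh1, E-cadherin, remained well expressed in basal cells, at 156 and 145 CPM, against 558 and 415 CPM in luminal libraries. Its fall of 1.69 ± 0.38 on the log2 scale was not called without basal F79 (-1.81), basal F81 (-1.54) or luminal F79 (-1.29), and the call of Nectin1 was lost without luminal F79 (1.43). Over the 21 genes of adherens junctions and desmosomes 5 rose and 4 fell, with a median of 0.29, and 3 rose and 2 fell without luminal F79, 4 and 2 without basal F79 and 5 and 2 without basal F81. Ctnnb1, beta-catenin, had a log2 fold change of 0.01 ± 0.23. Epcam is the gene of a sorted surface protein and is no finding here, and it had 298 and 283 CPM in basal libraries, against 1081 and 800.3 CPM in luminal libraries.

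Integrins and hemidesmosome genes, which tie the basal layer to its matrix, showed 10 rises and 2 falls among 19 (median 1.06). Itga9 had 125 and 97.7 CPM in basal libraries, against 5.16 and 11 CPM in luminal libraries (log2 fold change 3.79 ± 0.36, adjusted p = 8.29e-06). Itga1, of the collagen receptor, had 42.6 and 39.8 CPM in basal libraries, against 3.87 and 4.76 CPM in luminal libraries. Itgb6, a chain of an epithelial integrin that activates TGF-beta, fell to 16.6 and 14.6 CPM in basal libraries, against 52.5 and 51.3 CPM in luminal libraries (log2 fold change -1.75 ± 0.32, adjusted p = 0.00108). Itga6 encodes CD49f, used in the sort, and had 732 and 715 CPM in basal libraries, against 241 and 255 CPM in luminal libraries. The list's counts were 6 higher and 1 lower without basal F79, 5 and 1 without luminal F79, and 6 and 2 without luminal F81.

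Basement membrane genes rose in 18 of 23 cases and fell in 1 (median 1.65). Col4a2, a chain of collagen IV, had 229 and 240 CPM in basal libraries, against 22.9 and 21.8 CPM in luminal libraries (log2 fold change 3.40 ± 0.29, adjusted p = 4.08e-06). Its partner chain Col4a1 had 268 and 201 CPM in basal libraries, against 28.5 and 29.4 CPM in luminal libraries. Hspg2, perlecan, had 281 and 302 CPM in basal libraries, against 43.2 and 46.7 CPM in luminal libraries. The laminin chains differed in where else they were found. Lama1 had 235 and 158 CPM in basal libraries, against 9.18 and 15.6 CPM in luminal libraries (log2 fold change 3.99 ± 0.77, adjusted p = 0.0107), and 1.49 and 1.97 CPM in stroma. Its call was lost without each library in turn (3.39 to 4.68). Lama2, the main laminin alpha chain of stroma here at 1366 and 1264 CPM, had 24.2 and 23.7 CPM in basal libraries, against 15.5 and 17.2 CPM in luminal libraries, and did not pass (0.55 ± 0.23). Lama5 fell to 99.4 and 138 CPM in basal libraries, against 398 and 187 CPM in luminal libraries, a call lost without basal F79 (log2 fold change -0.73) and without luminal F79 (-0.52). The list's counts were 12 higher without basal F79 and 11 without luminal F79, with none lower in either.

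Interstitial matrix genes split by chain. Of 24 tested, 13 rose and 2 fell (median 1.39). Postn, the matricellular protein periostin, had 2025 and 1534 CPM in basal libraries, against 73.5 and 133 CPM in luminal libraries (log2 fold change 4.11 ± 0.32, adjusted p = 2.24e-06). Col16a1 had 89.0 and 110.3 CPM in basal libraries, against 8.54 and 12.9 CPM in luminal libraries. Col1a1 and Col3a1, the main fibrillar collagens of stroma, did not pass, with log2 fold changes of 0.19 ± 0.30 and 0.16 ± 0.30. Both were low in either fraction: Col1a1 had 56.8 and 66.0 CPM in basal libraries, against 48.3 and 59.6 CPM in luminal libraries, with 3594 and 2181 CPM in stroma. Dcn, the proteoglycan decorin, fell to 172 and 238 CPM in basal libraries, against 725 and 773 CPM in luminal libraries (log2 fold change -1.87 ± 0.29, adjusted p = 0.000333). Col8a1, a short-chain collagen, fell to 21.8 and 11.4 CPM in basal libraries, against 243 and 199 CPM in luminal libraries, and stroma held 36.1 and 30.2 CPM.

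Matrix proteases and their inhibitors rose in 13 of 22 cases and fell in 2 (median 1.62). Adamts18, a secreted metalloprotease, had 91.6 and 81.8 CPM in basal libraries, against 2.09 and 6.46 CPM in luminal libraries, with 1.71 and 2.85 CPM in stroma (log2 fold change 4.43 ± 0.45, adjusted p = 1.69e-05). Adamts1, which cleaves proteoglycans, had 1361 and 1055 CPM in basal libraries, against 84.7 and 139 CPM in luminal libraries. Plat, tissue plasminogen activator, had 79.8 and 47.7 CPM in basal libraries, against 5.48 and 6.63 CPM in luminal libraries. Mmp15 and Adam10, both membrane-bound, fell by 3.17 ± 0.30 and 2.37 ± 0.24 on the log2 scale. Mmp15 had 9.12 and 9.70 CPM in basal libraries, against 89.7 and 78.0 CPM in luminal libraries.

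Markers of the other cells of the gland stood as follows beside these matrix genes. Either way, 25% of all tested genes were called, against 33.3% of fibroblast, 27.3% of endothelial and 57.1% of pericyte markers. For immune markers the share was 14.3%, for nerve sheath and muscle markers 33.3% and for the 3 adipocyte markers tested 66.7%. The summed level of 12 fibroblast markers was 938 and 859 CPM in basal libraries, against 1012 and 1111 CPM in luminal libraries, with 27820 and 21180 CPM in stroma. Of these, 3 rose (Cxcl12, Mmp2 and Pdgfra) and 1, Dcn, fell, and without Dcn the sum of the other 11 was 766 and 621 CPM in basal libraries, against 287 and 338 CPM in luminal libraries. The call of Pdgfra (log2 fold change 0.72) was lost in 8 of 12 alternatives, among them those without basal F79 (0.56), luminal F79 (0.73) and luminal F81 (0.72). The sum of 11 endothelial markers was 305 and 184 CPM in basal libraries, against 153 and 173 CPM in luminal libraries, with 2 higher, Kdr and Pecam1, and 1 lower, Vwf. Without basal F79, luminal F79 and luminal F81, Kdr had 0.90, 1.76 and 1.76 and Pecam1 0.42, 0.85 and 0.94 on the log2 scale, and neither was called. Pericyte markers summed to 409 and 198 CPM in basal libraries, against 216 and 245 CPM in luminal libraries (3 higher and 1 lower of 7). Notch3 was the lower one (log2 fold change -2.6). Its luminal level, given below with the Notch genes, makes up much of the luminal pericyte sum. Adipocyte markers summed to 215 and 111 CPM in basal libraries, against 108 and 105 CPM in luminal libraries, and immune markers to 41.1 and 65.3 CPM, against 31.7 and 40.9 CPM (1 adipocyte marker higher and 1 lower, 1 immune marker higher). Nerve sheath and skeletal muscle markers summed to 48.2 and 47.1 CPM in basal libraries, against 48.5 and 52.8 CPM in luminal libraries, with 2 higher and 1 lower, none of them called without basal F81 or luminal F79. Endothelial, pericyte and adipocyte sums were higher in basal F79 than in the other 3 epithelial libraries, and without basal F79, luminal F79 or luminal F81 no endothelial or adipocyte marker was called higher. Without luminal F79 no pericyte marker was called higher. The part of these cells in the matrix differences was not tested.

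Transcription factors listed as basal rose in 7 of 20 cases and fell in 3 (median 0.93). Snai2 and Id4 lay high in basal cells, and Id4, an inhibitor of helix-loop-helix factors, had 19.4 and 29.3 CPM in basal libraries, against 0.644 and 1.87 CPM in luminal libraries (log2 fold change 4.29 ± 0.49, adjusted p = 2.65e-05). Mef2c, a muscle and vessel factor, had 49.7 and 39.0 CPM in basal libraries, against 6.28 and 8.84 CPM in luminal libraries. Trp63, the p63 gene that basal epithelium depends on, had 344 and 271 CPM in basal libraries, against 7.41 and 22.6 CPM in luminal libraries, and missed the threshold (log2 fold change 4.47 ± 1.24, adjusted p = 0.0591). Not every listed factor was basal here. Tbx3 fell to 64.8 and 49.9 CPM in basal libraries, against 128 and 117 CPM in luminal libraries, and Meis1 fell to 8.56 and 17.7 CPM, against 36.2 and 41.3 CPM. Sox9, a progenitor-associated factor, fell to 152 and 178 CPM in basal libraries, against 418 and 324 CPM in luminal libraries, a call lost without basal F79 (-1.04), basal F81 (-1.25) and luminal F79 (-0.82). Zeb1, Zeb2, Snai1 and Twist1, other inducers of the epithelial-mesenchymal transition, did not pass. Without luminal F79, 4 of the list rose and 2 fell.

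Luminal transcription factors fell in 13 of 25 cases and rose in 3 (median -1.21). Ehf, an ETS factor of epithelia, had 3.91 and 11.1 CPM in basal libraries, against 113 and 112 CPM in luminal libraries (log2 fold change -3.99 ± 0.32, adjusted p = 2.87e-06). Myb had 0.93 and 2.31 CPM in basal libraries, against 25.4 and 22.6 CPM in luminal libraries. Elf5, the factor of milk-secreting progenitors, had 3.72 and 6.52 CPM in basal libraries, against 96.5 and 73.7 CPM in luminal libraries, and Foxa1, the cofactor of oestrogen receptor, had 1.30 and 9.35 CPM, against 129 and 98.2 CPM. Gata3, the factor most linked to luminal identity, did not pass (75.7 and 76.3 CPM in basal libraries, 138 and 84.5 CPM in luminal libraries, log2 fold change -0.53 ± 0.35, adjusted p = 0.309). Grhl2 and Tfap2a, which many epithelia share, had log2 fold changes of -0.13 ± 0.45 and -0.30 ± 0.32. Cebpb, Runx1 and Tfap2c rose, Runx1 with 1052 and 1041 CPM in basal libraries, against 295 and 362 CPM in luminal libraries. Its call was lost without each library in turn (log2 fold changes 1.52 to 1.89), and those of Cebpb and Tfap2c without basal F79 (0.99 and 1.46) and luminal F79 (0.92 and 1.83), and of Tfap2c also without luminal F81 (2.34). The list's count of falls was 10, with none higher, without basal F79 or luminal F79.

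Among 12 genes of splicing control and epithelial-mesenchymal transition, 6 rose and 4 fell (median 0.34). Vim, the intermediate filament of mesenchyme and myoepithelium, had 260 and 224 CPM in basal libraries, against 48.0 and 58.8 CPM in luminal libraries (log2 fold change 2.18 ± 0.26, adjusted p = 3.30e-05). The splicing regulators Mbnl1, Rbfox2 and Qk rose by 1.49 ± 0.25, 1.15 ± 0.21 and 0.95 ± 0.20, and the call of Qk was lost without luminal F79 (0.83). Esrp2, which drives epithelial splice forms, fell to 14.3 and 20.9 CPM in basal libraries, against 69.6 and 51.6 CPM in luminal libraries (log2 fold change -1.80 ± 0.29, adjusted p = 0.000443). Its relative Esrp1 fell by 1.03 ± 0.32, a call lost without each library in turn (log2 fold changes -1.29 to -0.74). Fn1, fibronectin, had 77.0 and 96.6 CPM in basal libraries, against 98.1 and 88.9 CPM in luminal libraries, and did not pass. Cdh1 and Epcam are the other members that fell, and Epcam, the gene of a protein used in the sort, is no finding here. Only 1 of the 4 falls was called without basal F79, basal F81 or luminal F79.

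Wnt pathway genes rose in 22 of 41 cases and fell in 4 (median 1.51). Several receptors rose. Fzd7 had 754 and 376 CPM in basal libraries, against 34.5 and 53.7 CPM in luminal libraries (log2 fold change 3.63 ± 0.33, adjusted p = 7.80e-06), and Fzd1 had 81.9 and 74.6 CPM, against 10.6 and 16.0 CPM. Lgr5, the R-spondin receptor and stem-cell marker, had 252 and 237 CPM in basal libraries, against 8.86 and 16.0 CPM in luminal libraries (log2 fold change 4.32 ± 0.49, adjusted p = 0.000205). The nuclear factor Tcf7 had 42.8 and 38.1 CPM in basal libraries, against 4.99 and 4.76 CPM in luminal libraries. Feedback targets rose as well: Nkd1, an inhibitor the pathway induces, had 44.1 and 27.8 CPM in basal libraries, against 2.58 and 2.04 CPM in luminal libraries, and Axin2 had 17.3 and 7.10 CPM, against 1.13 and 2.89 CPM. The call of Axin2 (log2 fold change 2.44) was lost without basal F79 (1.93) and luminal F79 (1.39). Ligands went both ways. Wnt4, a ligand that progesterone induces, fell to 3.35 and 12.0 CPM in basal libraries, against 91.7 and 80.4 CPM in luminal libraries (log2 fold change -3.55 ± 0.50, adjusted p = 0.000585). Wnt7b fell to 4.84 and 2.94 CPM in basal libraries, against 24.5 and 21.8 CPM in luminal libraries. Rspo1 and Wnt5b fell by 1.87 ± 0.45 and 1.34 ± 0.45. The call of Rspo1 was lost without basal F79 (-1.60) and luminal F81 (-1.40), and that of Wnt5b without each library in turn (-1.58 to -1.11). The ligands Wnt11 and Wnt10a rose by 3.39 ± 0.44 and 4.36 ± 0.58.

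The Notch ligands Dll1 and Jag1 were higher in basal cells and the receptors Notch1 and Notch3 lower. Dll1 had 142 and 119 CPM in basal libraries, against 5.16 and 10.9 CPM in luminal libraries (log2 fold change 4.10 ± 0.74, adjusted p = 0.00686), and Jag1 had 65.5 and 67.5 CPM, against 25.8 and 25.1 CPM (log2 fold change 1.38 ± 0.21, adjusted p = 0.000257). The receptor Notch3 had 25.1 and 23.3 CPM in basal libraries, against 144 and 149 CPM in luminal libraries (log2 fold change -2.60 ± 0.26, adjusted p = 9.28e-06). Notch1 fell to 46.7 and 41.7 CPM in basal libraries, against 89.4 and 83.6 CPM in luminal libraries. Notch2, another receptor, had 77.4 and 79.8 CPM in basal libraries, against 77.7 and 75.3 CPM in luminal libraries. Rbpj, the DNA-binding partner of all Notch receptors, and its coactivator Maml2 rose by 1.10 ± 0.19 and 1.22 ± 0.23. The target Hes1 fell by 0.74 ± 0.20, lost without each library in turn (-0.86 to -0.61). Of 20 genes 6 rose and 3 fell (median 0.61). Without basal F79 or luminal F79, 3 rose and 2 fell, and Dll1 was not called without basal F79 (3.40), luminal F79 (3.66) or luminal F81 (4.60).

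In the EGF receptor family the receptors divided. Egfr had 334 and 278 CPM in basal libraries, against 66.5 and 93.1 CPM in luminal libraries (log2 fold change 1.93 ± 0.24, adjusted p = 3.97e-05). Erbb3 had 12.1 and 15.8 CPM in basal libraries, against 187 and 176 CPM in luminal libraries (log2 fold change -3.75 ± 0.32, adjusted p = 3.64e-06), and Erbb4 had 0.744 and 0.866 CPM, against 22.7 and 20.2 CPM. Erbb2 also fell, by 1.87 ± 0.25. Areg, the ligand that oestrogen induces during duct growth, had 11.5 and 23.3 CPM in basal libraries, against 478 and 338 CPM in luminal libraries (log2 fold change -4.68 ± 0.44, adjusted p = 4.33e-05). Nrg1, a ligand of Erbb3 and Erbb4, had 5.58 and 13 CPM in basal libraries, against 0.644 and 1.02 CPM in luminal libraries (log2 fold change 3.41 ± 0.72, adjusted p = 0.00302), a call lost without luminal F81 (3.09). Lrig3 and Lrig1, membrane proteins known to restrain EGF receptors, rose by 3.12 ± 0.45 and 1.43 ± 0.23. Of 15 genes 6 rose and 6 fell (median 0.05).

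Kit and its ligand were also opposite. Kit, a receptor of luminal progenitors, had 14.5 and 16.5 CPM in basal libraries, against 239.6 and 150.2 CPM in luminal libraries (log2 fold change -3.60 ± 0.29, adjusted p = 2.26e-06). Kitl had 263 and 256 CPM in basal libraries, against 56.5 and 92.4 CPM in luminal libraries (log2 fold change 1.84 ± 0.22, adjusted p = 3.62e-05). The same list holds FGF, IGF and HGF signals, and in all 14 of 29 genes rose and 2 fell (median 1.10, or 1.04 with Fgfr4, which had no luminal counts, set at its bound against 3 counts). Hgf, the ligand of Met, had 104 and 124 CPM in basal libraries, against 2.74 and 10.4 CPM in luminal libraries (log2 fold change 4.18 ± 0.50, adjusted p = 0.000206). Met itself did not pass (36.9 and 49.2 CPM in basal libraries, 71.8 and 57.4 CPM in luminal libraries). Fgf2 had 31.1 and 51.9 CPM in basal libraries, against 7.41 and 11.2 CPM in luminal libraries. Igfbp4 and Irs2, of IGF and insulin signalling, rose by 1.63 ± 0.21 and 1.43 ± 0.19. Igf2r, which clears IGF2, fell by 0.96 ± 0.22, a call lost without basal F79 (-0.95) and basal F81 (-0.91).

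Of 29 genes of TGF-beta and BMP signalling 12 rose and 5 fell (median 0.85). Fst, follistatin, which binds activins, had 237 and 222 CPM in basal libraries, against 7.41 and 17 CPM in luminal libraries (log2 fold change 4.26 ± 0.33, adjusted p = 2.77e-06). Inhbb, an activin subunit, ran the other way, with 4.28 and 5.37 CPM in basal libraries, against 81 and 61.7 CPM in luminal libraries (log2 fold change -3.91 ± 0.36, adjusted p = 4.88e-06). The co-receptor Tgfbr3 had 631 and 608 CPM in basal libraries, against 53.8 and 92.8 CPM in luminal libraries, and Tgfbr1 had 153 and 183 CPM, against 26.3 and 47.4 CPM. Id3, a BMP target, rose by 2.25 ± 0.25. Bmpr1b, a BMP receptor, had 0.372 and 0.173 CPM in basal libraries, against 8.54 and 5.78 CPM in luminal libraries. Ltbp1, a matrix carrier of latent TGF-beta, fell by 1.53 ± 0.22. Without luminal F79, 7 rose and 4 fell.

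Axon guidance genes, which also shape branching epithelia, rose in 24 of 39 cases and fell in 3 (median 1.31). Slit2, a secreted repellent, had 79.3 and 100.1 CPM in basal libraries, against 4.99 and 8.50 CPM in luminal libraries (log2 fold change 3.74 ± 0.36, adjusted p = 1.20e-05). Sema5a had 260 and 263 CPM in basal libraries, against 10.6 and 27.5 CPM in luminal libraries, and Sema3c had 141 and 111 CPM, against 19.8 and 18.2 CPM. Efnb2, an ephrin, had 88.6 and 53.8 CPM in basal libraries, against 13.1 and 14.8 CPM in luminal libraries. Ntn1, netrin 1, fell to 12.7 and 15.6 CPM in basal libraries, against 94.9 and 78.8 CPM in luminal libraries (log2 fold change -2.61 ± 0.25, adjusted p = 6.90e-06), while its receptor gene Neo1 rose by 0.95 ± 0.19. Ephb3 and Sema4a fell by 0.90 ± 0.26 and 0.74 ± 0.25. The call of Ephb3 was lost without basal F81 (-0.52) and luminal F81 (-0.59), and that of Sema4a without each library in turn (-0.88 to -0.60). Over all alternatives, Ephb3 was lost in 6 of 12 and Sema4a in 12 of 12.

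**Figure D4:**
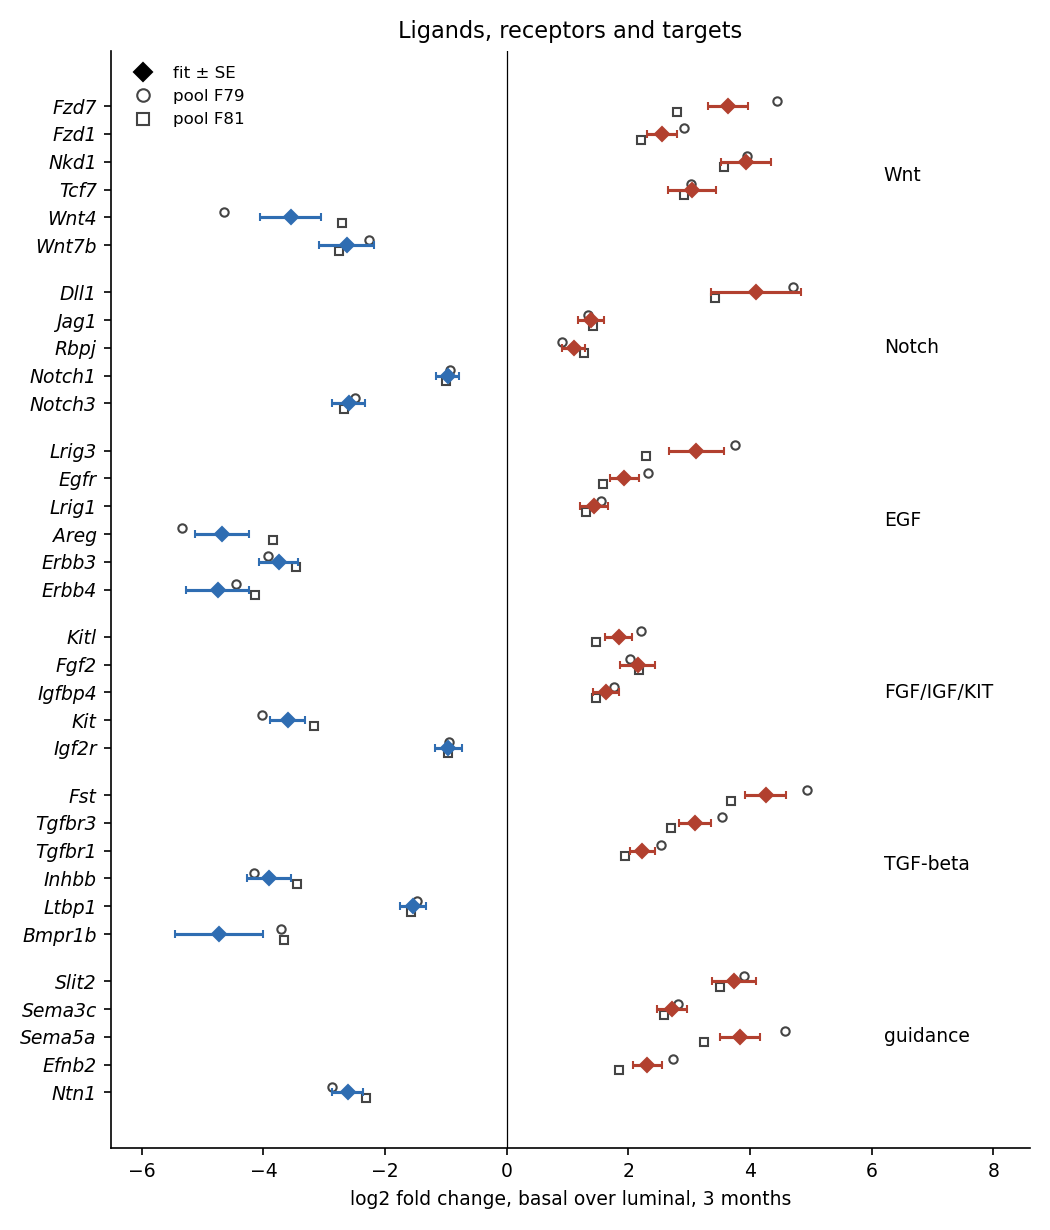
Log2 fold change of basal over luminal cells (horizontal axis, diamonds with SE) for genes of Wnt, Notch, EGF, FGF, IGF and KIT, TGF-beta and BMP, and axon guidance signalling. Circles and squares are the ratios in pools F79 and F81. Kitl, Jag1, Egfr and Fst lie right of 0 and Kit, Notch3, Erbb3 and Inhbb left of it, in both pools.

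Hormone-sensing genes fell as a group, 14 of 18 with none rising (median -3.58). Their summed level was 399 and 592 CPM in basal libraries, against 6364 and 5343 CPM in luminal libraries. Prlr, the prolactin receptor, had 80.2 and 211 CPM in basal libraries, against 3889 and 3340 CPM in luminal libraries (log2 fold change -4.80 ± 0.42, adjusted p = 1.49e-05). Esr1, oestrogen receptor alpha, had 9.68 and 22.7 CPM in basal libraries, against 143 and 163 CPM in luminal libraries (log2 fold change -3.27 ± 0.28, adjusted p = 2.83e-06), with 74.7 and 84.6 CPM in stroma. Pgr, the progesterone receptor, had 31.6 and 40.6 CPM in basal libraries, against 488 and 402 CPM in luminal libraries. In both pools these receptors were on the luminal side. Cited1, a cofactor of the oestrogen response, had 3.72 and 10.9 CPM in basal libraries, against 202 and 179 CPM in luminal libraries. Cxcl15, a chemokine, had 1.68 and 4.56 CPM in basal libraries, against 83.3 and 121 CPM in luminal libraries (log2 fold change -5.11 ± 0.37, adjusted p = 1.45e-06). Ly6a, the surface protein Sca-1, had 20.5 and 21.6 CPM in basal libraries, against 143 and 100.2 CPM in luminal libraries.

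Genes of luminal progenitors and milk fell in 19 of 24 cases with none rising (median -2.85), and in 11 with no replicate block. Lif, a cytokine, had 10.1 and 10.2 CPM in basal libraries, against 69.0 and 87.8 CPM in luminal libraries (log2 fold change -2.96 ± 0.28, adjusted p = 6.13e-06). Cd14, the lipopolysaccharide co-receptor, had 8.93 and 12.6 CPM in basal libraries, against 90.0 and 104 CPM in luminal libraries, and Aldh1a3, which makes retinoic acid, had 2.42 and 5.83 CPM, against 67.2 and 42.8 CPM. These mark progenitors in the virgin gland. Csn3, kappa-casein of milk, had 47.3 and 92.4 CPM in basal libraries, against 1171 and 916 CPM in luminal libraries (log2 fold change -3.96 ± 0.47, adjusted p = 0.000257). Wap, the whey acidic protein, was detected only in luminal F81, at 0.17 CPM. Lcn2, an iron-binding defence protein of the same list, did not pass (733 and 808 CPM in basal libraries, 937 and 880 CPM in luminal libraries).

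Channels and transporters of ions and water fell in 10 of 21 cases and rose in 4 (median -1.19). Slc12a2, the sodium-potassium-chloride cotransporter, had 77.0 and 148 CPM in basal libraries, against 2135 and 2021 CPM in luminal libraries (log2 fold change -4.32 ± 0.30, adjusted p = 1.45e-06). Slc5a5, the iodide transporter, had 5.96 and 13.1 CPM in basal libraries, against 226 and 173 CPM in luminal libraries, and Aqp5, a water channel, had 0.558 and 1.96 CPM, against 91.0 and 46.7 CPM. Scnn1a and Scnn1b, subunits of the epithelial sodium channel, fell by 3.04 ± 0.37 and 3.88 ± 0.51, and the gamma subunit Scnn1g did not pass (-0.57 ± 0.73). Kcnq5, a voltage-gated potassium channel, was the basal member, with 52.7 and 45.7 CPM in basal libraries, against 0.805 and 1.70 CPM in luminal libraries (log2 fold change 5.28 ± 0.64, adjusted p = 0.000112). Sodium pump subunits split: Atp1b1 fell to 22.7 and 22.3 CPM in basal libraries, against 87.0 and 99.4 CPM in luminal libraries, and Atp1b3 rose to 82.2 and 84.3 CPM, against 33.0 and 38.1 CPM.

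Metabolic genes were evenly divided, with 9 rising and 8 falling among 30 (median 0.24). Lipid synthesis genes Scd1, a fatty acid desaturase, and Lpin1 fell by 2.12 ± 0.24 and 2.32 ± 0.32. Scd1 had 37.8 and 60.2 CPM in basal libraries, against 220 and 194 CPM in luminal libraries. Fasn and Acaca, which start fatty acid synthesis, had log2 fold changes of 0.08 ± 0.22 and 0.05 ± 0.24. The amino acid transporter Slc7a5 had 83.9 and 91.5 CPM in basal libraries, against 24.6 and 30.8 CPM in luminal libraries (log2 fold change 1.67 ± 0.25, adjusted p = 0.000195). Pfkp, a glycolytic kinase, and Ldhb, lactate dehydrogenase B, rose by 1.38 ± 0.23 and 1.48 ± 0.29, and Ldhb was not called without basal F79 (1.12). Tph1, which makes serotonin, had 1.30 and 1.27 CPM in basal libraries, against 128 and 19.9 CPM in luminal libraries, so the luminal pools differed widely. Without basal F79 3 rose and 5 fell, without luminal F79 5 and 4, and without luminal F81 5 and 7.

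Innate immune genes showed 7 rises and 4 falls among 29 (median 0.11), so 37.9% were called, against 25% of all tested genes. Some chemokines were higher: Cxcl12 had 307 and 204 CPM in basal libraries, against 23.0 and 43.2 CPM in luminal libraries (log2 fold change 2.95 ± 0.34, adjusted p = 8.25e-05), and Ccl2 had 29.6 and 24.6 CPM, against 4.83 and 5.78 CPM, with 167 and 146 CPM in stroma. Cxcl14 had 306 and 214 CPM in basal libraries, against 6.12 and 20.4 CPM in luminal libraries, a call lost without basal F79 (log2 fold change 3.84) and luminal F79 (3.45). Ltf, the milk defence protein lactoferrin, fell to 6.88 and 8.6 CPM in basal libraries, against 235 and 87.7 CPM in luminal libraries (log2 fold change -4.26 ± 0.46, adjusted p = 0.000102). The class I antigen presentation genes B2m and H2-K1 had log2 fold changes of 0.12 ± 0.20 and 0.11 ± 0.20. The counts were 3 higher and 4 lower without basal F81, and 4 and 3 without luminal F79 or luminal F81.

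Of 20 cell cycle genes 6 rose and 1 fell (median 1.06), and the D cyclins were opposite. The share called was 35%, against 25% of all tested genes. Ccnd2 had 98.4 and 58.7 CPM in basal libraries, against 7.09 and 8.84 CPM in luminal libraries (log2 fold change 3.27 ± 0.35, adjusted p = 2.53e-05), and Ccnd1 fell to 99.9 and 78.8 CPM, against 238 and 246 CPM (log2 fold change -1.45 ± 0.23, adjusted p = 0.00031). Pcna and Top2a, used in DNA replication and chromosome untangling, rose by 1.16 ± 0.22 and 2.15 ± 0.52. Mki67, the proliferation marker, had 43.9 and 19.4 CPM in basal libraries, against 17.4 and 8.50 CPM in luminal libraries and did not pass (adjusted p = 0.0577). Without luminal F79 Pcna and Top2a were not called (0.93 and 1.57), nor was Top2a without basal F79 (1.15). The list then held 1 rise and 1 fall without luminal F79 and 2 rises and 1 fall without basal F79.

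Immediate-early and stress genes, which dissociation and sorting are known to induce, rose in 11 of 20 cases and fell in 3 (median 0.96). Egr1, a growth-response factor, had 3703 and 2456 CPM in basal libraries, against 896 and 877 CPM in luminal libraries (log2 fold change 1.76 ± 0.26, adjusted p = 0.000208). Egr2 had 446 and 296 CPM in basal libraries, against 28.8 and 35.5 CPM in luminal libraries, and Nr4a1 had 440.1 and 320.5 CPM, against 188 and 114 CPM. Fos, Jun and Atf3 did not pass. Fos had 452 and 384 CPM in basal libraries, against 398 and 278 CPM in luminal libraries. Klf6 fell by 0.91 ± 0.21, a call lost without basal F81 (-0.75) and luminal F81 (-0.66). The heat-shock gene Hspa1b also fell (log2 fold change -0.68), a call lost in 11 of 12 alternatives. Without luminal F81, 9 rose and none fell, and 1 fell when any of the other 3 libraries was left out. At 12 months 3 genes of this list were called higher in basal cells and 3 lower (median 0.009). Egr1 was not called there (log2 fold change 0.37 ± 0.26). The part of tissue handling in these values was not tested.

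Outside the lists, the largest rises were of genes nearly silent in luminal cells. Fam180a had 19.9 and 11.7 CPM in basal libraries, against 0.161 and 0.34 CPM in luminal libraries, where 3 counts in all were seen (ratio 55.0, counting interval 18.7 to 268). Vsnl1, a neuronal calcium sensor, had 55.5 and 25.2 CPM in basal libraries, against 0.483 and 1.36 CPM in luminal libraries (log2 fold change 5.33 ± 0.75, adjusted p = 0.000415). Brinp3 had 32.2 and 45.0 CPM in basal libraries, against 0.967 and 1.53 CPM in luminal libraries, and Ephb1, an ephrin receptor, had 25.5 and 34.3 CPM, against 0.644 and 1.53 CPM. Popdc2, a cyclic AMP binding protein of muscle, had 25.1 and 16.7 CPM in basal libraries, against 0.322 and 1.19 CPM in luminal libraries. Of the 15 largest rises, Col6a4, Bcl11b and Egfl6 lost their call without basal F79 (log2 fold changes 4.04, 3.87 and 4.90) and without luminal F79 (4.21, 3.70 and 5.29), and Egfl6 also without luminal F81 (4.55). Efcab1, with 3 luminal counts and a ratio of 45.6 (counting interval 15.4 to 223), lost its call when basal F79, luminal F79 or luminal F81 was left out.

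The largest falls after Cldn6 were of Gipc2, Aqp5, Dscam and Ido1. Gipc2, an adaptor protein, had 0.186 and 1.04 CPM in basal libraries, against 29.3 and 32.8 CPM in luminal libraries (log2 fold change -5.61 ± 0.66, adjusted p = 3.65e-05). Ido1, which breaks down tryptophan, had 1.86 and 0.866 CPM in basal libraries, against 98.6 and 34.7 CPM in luminal libraries. Tmprss2, a membrane serine protease, had 3.16 and 13.8 CPM in basal libraries, against 345 and 191 CPM in luminal libraries. Dmbt1, a secreted defence protein, stood out for its unequal pools, at 42.2 and 13 CPM in basal libraries, against 3319 and 251 CPM in luminal libraries (log2 fold change -5.38 ± 0.50, adjusted p = 7.08e-05). Both basal libraries were still below both luminal ones. Among abundant genes, Glul, glutamine synthetase, had 260 and 206 CPM in basal libraries, against 4784 and 2944 CPM in luminal libraries (log2 fold change -4.01 ± 0.28, adjusted p = 1.45e-06), and Cd164, a sialomucin, had 240.1 and 292 CPM, against 2162 and 1610 CPM. On the basal side Mt2, a metal-binding protein, had 2215 and 2102 CPM, against 312 and 351 CPM in luminal libraries, though reads it shares with the close copy Mt1 may have been split. Jmjd1c, a chromatin regulator, had 1427 and 2181 CPM in basal libraries, against 516 and 549 CPM in luminal libraries.

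Among long non-coding genes, the imprinted neighbours Meg3 and Rian rose by 2.24 ± 0.36 and 2.04 ± 0.28. Meg3 had 45.2 and 73.5 CPM in basal libraries, against 8.38 and 17 CPM in luminal libraries, with 273 and 187 CPM in stroma. Malat1, an abundant nuclear RNA, fell to 6405 and 11210 CPM in basal libraries, against 16980 and 17440 CPM in luminal libraries, a call lost without basal F79 (-0.59) and luminal F79 (-0.84). It was lost in 6 of 12 alternatives, among them no replicate block and the 4 libraries alone with and without the block. Plet1os fell by 3.38 ± 0.45, and its antisense partner Plet1 fell too, with 44.1 and 142 CPM in basal libraries, against 1185 and 1190 CPM in luminal libraries. The strand setting of the counting is not given in the sources used here, so reads of the pair cannot be told apart.

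The same contrast at 12 months, in pools A1 and A2, was called for 17.5% of genes, 1853 higher in basal cells (12.4%) and 765 lower (5.1%). Of the 3753 genes called at 3 months, 3605 had the same sign at 12 months and 1951 (52%) were also called in that direction, 1317 higher and 634 lower, while 5 were called the other way. The same-sign share over all tested genes was not computed. Acta2 had a log2 fold change of 5.92 (adjusted p = 1.73e-06) and Snai2 of 5.82 (adjusted p = 1.73e-06), and Krt14 passed there, at 5.74 (adjusted p = 0.0488). Krt8 and Cldn4 were again lower, by -1.66 and -2.48 on the log2 scale. The number called at 12 months was 1435 to 1524 with any of its 4 libraries left out (1480 without basal A1, 1435 without basal A2, 1524 without luminal A1 and 1509 without luminal A2).

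The difference between the contrasts, 3 minus 12 months, was called for 0.861% of genes, 7 positive and 122 negative. Without the pool as a replicate block, 3 were positive and 56 negative. Of the 122, 54 were called lower in basal cells at 3 months, and 41 of those had a negative fold change at 12 months too. Another 46 were not called at 3 months and were called higher at 12 months. Slc12a2 belongs to the 54: its log2 fold change was -4.32 at 3 months and -1.85 at 12 months (adjusted p of the difference = 0.00944). Glul likewise gave -4.01 and -1.27 (adjusted p = 0.00488). Ly6c1, a surface protein of vessels and leukocytes, belongs to the 46, with 20.1 and 13.7 CPM in basal libraries, against 15.5 and 15.3 CPM in luminal libraries at 3 months, and 47.7 and 44.1 CPM, against 4.20 and 1.82 CPM at 12 months. Vim, Col5a1 and Tbx3 were also called, and Tbx3 had a log2 fold change of -1.11 at 3 months and 0.59 at 12 months. For 71 of the 122 genes the 3-month stromal mean lay above both epithelial fractions. The same share over all tested genes was not computed, so this count cannot show a trait of the 122.

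Summed markers of other cells differed between the ages in the same libraries. Endothelial markers summed to 612 and 780.0 CPM in basal libraries at 12 months, against 95.0 and 73.4 CPM in luminal libraries, where 10 of 11 were called higher in basal cells. Fibroblast markers summed to 1118 and 740.5 CPM in basal libraries at 12 months, against 355 and 371 CPM in luminal libraries. Pericyte markers summed to 689 and 577 CPM, against 153 and 111 CPM, and adipocyte markers to 367 and 522 CPM, against 53.8 and 45.8 CPM. The fibroblast sums include Dcn and the pericyte sums Notch3, both called lower in basal than in luminal cells at 3 months. The fibroblast, endothelial, pericyte and adipocyte sums of luminal cells were thus lower at 12 than at 3 months. In basal cells the endothelial, pericyte and adipocyte sums were higher. Without Dcn the luminal fibroblast sum at 3 months was 287 and 338 CPM, and it was not computed at 12 months. Pericyte sums without Notch3 were not computed. A fall of the other fibroblast and pericyte markers in luminal cells is therefore not shown. The part of such cells in the age difference was not tested, and age and pool cannot be told apart. The number of genes that differed was 70 without 3-month basal F79, 48 without 12-month basal A1, 30 without 12-month basal A2 and 26 without 12-month luminal A2.

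**Figure D5:**
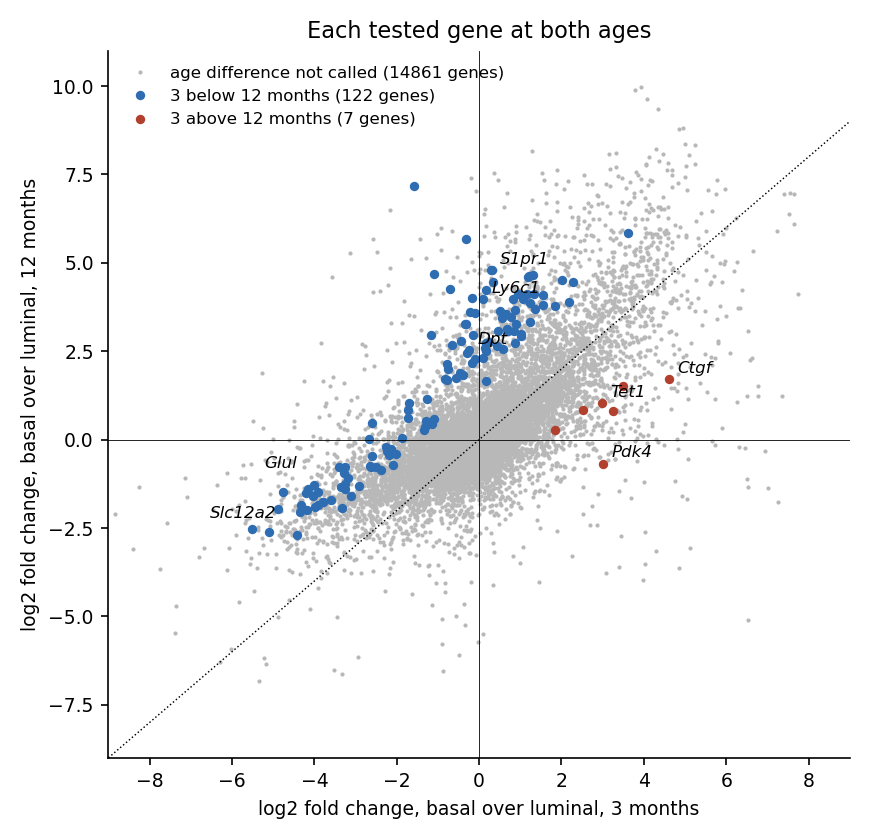
Log2 fold change of basal over luminal cells at 3 months (horizontal axis) and at 12 months (vertical axis) for the 14990 tested genes. The 122 genes whose difference, 3 minus 12 months, was called negative are blue and the 7 called positive red. Most genes called at 3 months, 3605 of 3753, have the same sign at both ages, a share not computed over all tested genes.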

How the data were processed

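RNA of the sorted cells was amplified (NuGEN Ovation V2) before TruSeq Nano libraries were made, per the labels' protocols. The submitters' processing notes name TopHat2 2.0.13, the GRCm38 build and HTSeq. The HTSeq version is not given in the sources used here, nor is its strand setting. Whole-transcript amplification of so little RNA can distort levels between genes and copy unspliced RNA. The analysis started from the deposited counts, raw whole numbers for 45706 genes in 26 libraries, of which 45143 matched GENCODE vM21 for positions and gene types. Promoters were taken from RefSeq (GRCm38.p6).

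The 12 wild-type libraries were fitted in edgeR (robust quasi-likelihood, TMM) with 1 coefficient per group and the pool as a block, after filterByExpr by group (minimum count 10, minimum total 15). This left 14990 genes and 4 residual degrees of freedom. Null libraries were left out because 2 of pool A5 go against their labels. SEs were derived from the F statistic. Same-pool libraries come from the same mice, but basal and luminal libraries of 1 pool deviated together only weakly (r = 0.129 at 3 months and 0.313 at 12 months, across genes). With stroma, r at 3 months was 0.0988 for basal and 0.00311 for luminal libraries. At 12 months these were 0.139 and 0.116. Counting intervals are exact at a level of 0.95 and, like folds on few counts, cover counting error only.

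The comparison, gene lists and tests were chosen with earlier results of these data known. Named genes were the markers Krt14, Acta2, Krt8, Cldn4 and Snai2, the 15 largest rises and falls among called genes whose groups did not overlap and whose higher mean reached 10 CPM, the 8 most abundant called genes each way, up to 4 called genes each way per list by smallest p (with none called, the 2 most abundant), the 5 smallest p-values each way for the age difference, and 3 long non-coding genes each way. Symbols that are numbered models or clones and pseudogenes were left out, and these genes were named after their values were seen: Trp63, Cnn2, Myl9, Vcl, Des, Oxtr, Krt5, Krt17, Tjp1, Patj, Cdh3, Ctnnb1, Itga6, Lama1, Lama2, Col1a1, Col3a1, Adamts18, Zeb1, Zeb2, Snai1, Twist1, Elf5, Foxa1, Gata3, Grhl2, Tfap2a, Qk, Fn1, Lgr5, Axin2, Wnt11, Wnt10a, Notch2, Nrg1, Fgfr4, Hgf, Met, Neo1, Csn3, Wap, Lcn2, Scnn1g, Atp1b1, Fasn, Acaca, B2m, H2-K1, Mki67, Fos, Jun, Atf3, Plet1, Cldn12 and Col5a1. Alternatives were no block, RLE size factors, no filter, DESeq2, other sets of libraries and each library left out. The test was first run on simulated counts. Fits ran in edgeR 4.0.16 and, as an alternative, DESeq2 1.42.0, under R 4.3.3. Figures were drawn with matplotlib 3.10.9.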

Additional observations from a re-analysis of the deposited data

Results flagged for a closer look

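The contrast of basal over luminal cells differed between 3 and 12 months for 129 genes in edgeR's quasi-likelihood test of the difference itself. The smallest p-values for a difference above 0, as log2 of 3 minus 12 months, belonged to Ctgf (2.90 ± 0.41), Pdk4 (3.68 ± 0.51), Tet1 (1.95 ± 0.34), Cnksr3 (2.45 ± 0.45) and Fam46c (1.68 ± 0.35). Ctgf had 185 and 86.4 CPM in basal libraries at 3 months, against 4.67 and 5.95 CPM in luminal libraries, and 160 and 154 CPM at 12 months, against 48.8 and 47.3 CPM. Pdk4, a kinase that slows pyruvate oxidation, had 76.1 and 95.6 CPM in basal libraries at 3 months, against 4.35 and 20.4 CPM in luminal libraries, and 201 and 155 CPM at 12 months, against 296 and 272 CPM. Tet1, which oxidises methylcytosine, had 120.4 and 81.4 CPM in basal libraries at 3 months, against 11.9 and 13.1 CPM in luminal libraries, and 45.3 and 42.4 CPM at 12 months, against 24.0 and 19.5 CPM.

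The smallest p-values for a difference below 0 belonged to Ly6c1 (-3.87 ± 0.39), S1pr1 (-4.48 ± 0.53), Thy1 (-4.08 ± 0.49), Adamts9 (-2.33 ± 0.30) and Dpt (-2.77 ± 0.35). None of these 5 passed between basal and luminal cells at 3 months, and all 5 were called higher in basal cells at 12 months. S1pr1, a sphingosine phosphate receptor of vessels and lymphocytes, had 15.6 and 14.4 CPM in basal libraries at 3 months, against 10.8 and 13.4 CPM in luminal libraries, and 36.3 and 57.2 CPM at 12 months, against 1.53 and 1.82 CPM. Thy1 and Dpt, both high in stroma, had 356 and 303 CPM and 2091 and 1655 CPM in 3-month stromal libraries. Each age rests on 2 pools, and age cannot be told apart from pool.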

How the results depend on the processing

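None of the 233 genes named by rule reversed in any alternative run. Against 3753 genes called at 3 months, 3404 were called with no replicate block, 3793 with RLE size factors, 4032 with no filter, 3309 with DESeq2 and 4021 in the 4 libraries alone (3489 without the block). With all 26 libraries 818 were called (491 higher, 327 lower), and 2001 without the 2 doubted A5 libraries. The cause of these lower counts was not tested. With a library left out, which leaves an arm with 1 sample assumed to vary like the other groups, 1708 to 2473 were called. At 12 months (2618) the counts were 2329 with no replicate block, 362 with all 26 libraries (94.5% higher, against 70.8%), 1212 without the A5 pair (80.9% higher) and 1435 to 1524 with a library left out. For the age difference (129) they were 59 with no replicate block, 555 with no filter, 287 with DESeq2, 0 in edgeR with all 26 libraries (296 at an unadjusted p under 0.05), 1 without the A5 pair (716 at an unadjusted p under 0.05) and 26 to 141 with a library left out. Of 227 named genes called, 106 were called in every alternative run and 173 with each library left out, while the fit to all 26 libraries lost 116 and the fit with no replicate block 17. Krt14 passed in 5 alternatives: no filter (adjusted p = 3.66e-53), DESeq2 (0.00108), without the A5 pair (0.0169) and the 4 libraries with and without the block, a range of 3.66e-53 to 0.379. With all 26 libraries the count of calls moved by over 1.5 times in every list except luminal keratins and immune markers. Of the other settings, no low-count filter gave 10 higher and 4 lower for adherens junctions and desmosomes (5 and 4), and no replicate block gave 4 and 3 for innate immunity (7 and 4). Without the A5 pair, 0 were higher and 9 lower of the claudin list (2 and 12), 3 and 3 of innate immunity, 3 and 0 of the cell cycle (6 and 1), 7 and 1 of dissociation stress (11 and 3), 2 and 0 of the fibroblast markers (3 and 1), 0 and 1 of the endothelial markers (2 and 1), 1 and 1 of the pericyte markers (3 and 1), 0 and 1 of the adipocyte markers (1 and 1) and 1 and 0 of the nerve sheath and muscle markers (2 and 1, and 1 and 0 with DESeq2). Endothelial markers gave 4 and 1 with no low-count filter, with DESeq2 and in the 4 libraries. Counts per list, and the fold changes of genes named outside the rule, were computed with a library left out after the data were seen, as was the fibroblast sum without Dcn. Depth limits genes under about 10 counts, and 2 pools per group limit the rest.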
